A study of Equus caballus with 37 samples.

Results

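FTH1 (ENSECAG00000001669), which encodes the heavy chain of ferritin, was followed in blood RNA of Arabian horses as 1 of the 26991 genes in the count table. The gene was taken by its identifier, with its role in iron storage and earlier results of these data known. The 37 RNA-seq libraries belonged to 4 periods. T0 comprised 6 untrained horses (2 mares and 4 stallions) sampled in October, 5 of them labelled as 2.5 and 1 as 3 years old. The other periods comprised horses in race training labelled as 3 years old. T1, sampled in March once the slow canter work was done, had 12 libraries (5 mares, 7 stallions). T2, sampled in May once the intense gallop work was done, had 11 libraries (4 mares, 7 stallions). T3, sampled in October when racing ended for the year, had 8 libraries (4 mares, 4 stallions). All were Arabians from one stud with no treatment labelled other than training, and blood was drawn from the jugular vein before the daily training. The trained horses were sampled repeatedly, but the labels name no horse, so the libraries were treated as independent. According to the study, some of the untrained horses did not enter the training centre later. Training and age cannot be told apart between T0 and the other periods, nor can training and season between T0 and T1 or T2. Among T1, T2 and T3, stage of training, season and passing time cannot be told apart either.

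Ferritin is a hollow shell of heavy and light chains in which cells keep iron in a soluble and harmless form. The heavy chain oxidises ferrous iron so that it can be deposited in the core, whereas the light chain helps the mineral to form. Ferritin synthesis is regulated at the level of translation, through iron regulatory proteins that bind the messenger RNA, and also at the level of transcription, where inflammatory and oxidative signals act. In blood, FTH1 messenger RNA is carried by monocytes and other leukocytes as well as by immature red cells. In whole blood, fewer cells of a type and less RNA per cell cannot be told apart. The list of 45 other iron genes chosen for comparison and the 57 markers of blood cell types could not be used, because 0 of these 102 symbols could be tied to an identifier of the count table. The blood label was therefore not checked against markers, and no other named iron gene was analysed here.

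Totals ranged from 3810631 to 14932603 counts per library, with a median of 10611594. FTH1 was well covered. It received 537694 counts in all, from 1828 in T1 replicate 11 to 24638 in T1 replicate 5, so that the counting error of a single library was at most 2.34%. Levels are given as CPM (counts scaled to a common library total) after scaling each library with its TMM factor, a correction for differences in library composition. These factors lay between 1.17 and 1.24 in T0, between 0.949 and 1.21 in T2 and between 1.05 and 1.25 in T3. In T1 they split into 5 libraries at 0.410 to 0.696 (4 mares, 1 stallion) and 7 libraries at 0.922 to 1.14 (1 mare, 6 stallions). Differences that involve T1 are therefore also given without those 5 libraries. The study also reports lower rates of uniquely mapped reads for some T1 samples than for others, and several sequencing pools. It lists these under its own sample numbers, which the labels do not give. The study's list and the labels run through the periods in the same order. If matched by that order, which no label states, the 5 libraries with low factors had the lowest mapping rates in T1. By this match, 4 of them were the only T1 libraries of their pool. The part of mapping rate and pool in the T1 values was not tested.

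FTH1 was lowest in the untrained horses and highest after the canter phase, with the gallop phase and the season end between them. In T0 the lowest library had 756, the median 873 and the highest 1034 CPM, with a mean of 890 ± 99.8 (SD, n = 6). In T1 the lowest library had 1169, the median 1528 and the highest 2527 CPM, with a mean of 1651 ± 375 (SD, n = 12). All 12 libraries of T1 therefore lay above all 6 of T0. In T2 the lowest library had 819, the median 1381 and the highest 1833 CPM, with a mean of 1377 ± 305 (SD, n = 11). The lowest library of T2, replicate 4, fell inside the range of T0, and the other 10 lay above it. In T3 the lowest library had 835, the median 1177 and the highest 1713 CPM, with a mean of 1217 ± 368 (SD, n = 8). The season-end libraries reached from the level of the untrained horses to that of the gallop phase.

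**Figure D1:**
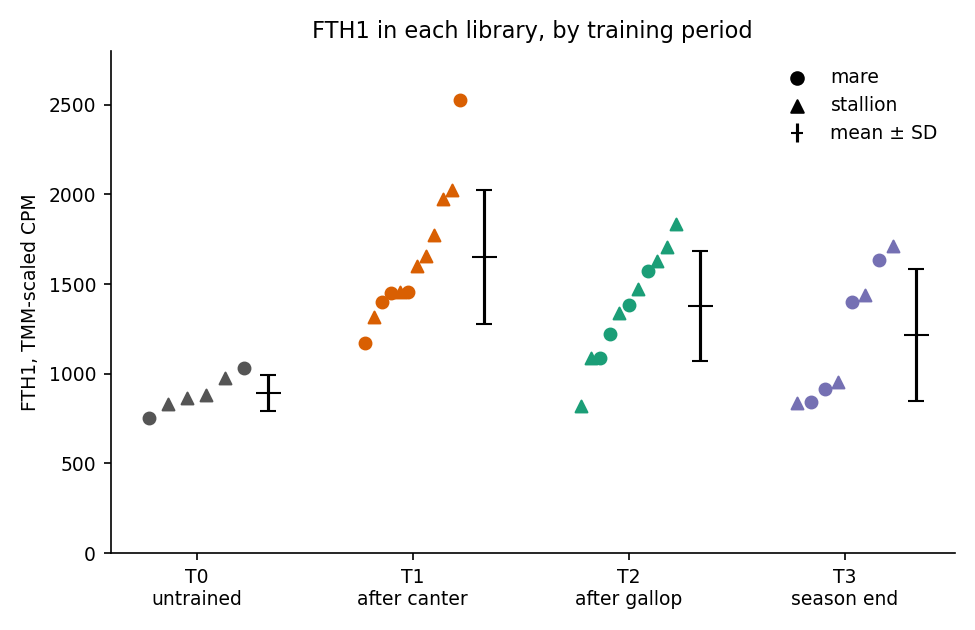
FTH1 level (vertical axis, TMM-scaled CPM) in each of the 37 libraries, by period (horizontal axis), with circles for mares, triangles for stallions and black bars for mean ± SD. All 12 libraries of T1 lie above the highest T0 library (1034 CPM), and no T3 library lies between 953 and 1401 CPM.

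The level differed between the 4 periods (edgeR quasi-likelihood F-test, F = 8.68, adjusted p = 0.000387). By the same test 75.5% of the 12025 genes tested passed an adjusted p of 0.05. A permutation test on FTH1 alone, with 100000 resamples, gave F = 9.57 and p = 0.00014. Without the 5 libraries of T1 with low TMM factors, F was 8.99 and the adjusted p 0.000495. With libraries scaled by their totals alone, without TMM factors, F was 1.76 and the adjusted p 0.196.

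Between untrained horses and the canter phase, FTH1 rose 1.83-fold (log2 fold change 0.87, standard error 0.18, 95% interval 0.49 to 1.25, edgeR adjusted p = 0.00082). Calls of differential expression required an adjusted p below 0.05 together with at least a 1.3-fold change. They were made for 58.1% of the genes tested, and 28.9% were called higher in T1, so that such a rise was common in this comparison. The change of FTH1 was larger than that of 58.6% of genes. Its libraries did not overlap between the 2 periods, which was also true of 22.7% of all genes tested. An exact permutation test of the difference in mean log2 CPM (0.87) gave p = 5.4e-05, adjusted over the 6 pairs of periods to 0.000323. Without the 5 T1 libraries with low TMM factors the log2 fold change was 0.93 (edgeR adjusted p = 3.84e-05). On the scale of plain totals it was 0.33 (edgeR adjusted p = 0.242) and FTH1 was not called.

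From untrained horses to the gallop phase, FTH1 rose 1.57-fold (log2 fold change 0.65, standard error 0.15, 95% interval 0.34 to 0.97, edgeR adjusted p = 0.00409). In this comparison 33.4% of genes were called, 17% as higher in T2, and FTH1 changed more than 80.5% of genes. The exact permutation test gave a difference of 0.60 (p = 0.00202, adjusted p = 0.00606). On plain totals the log2 fold change was 0.47 (edgeR adjusted p = 0.0109), still called. With the log2 TMM factor as a covariate the log2 fold change was 0.25 (edgeR adjusted p = 0.624), and the TMM factors of T0 and T2 overlapped only between 1.17 and 1.21. The part of the library composition in this difference was not tested further.

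Both T0 and T3 were sampled in October. FTH1 was 1.36-fold higher in T3 than in T0 (log2 fold change 0.45, standard error 0.19, 95% interval 0.04 to 0.85), with an unadjusted p of 0.0319 and an edgeR adjusted p of 0.0975, and was not called. In this comparison 19.6% of genes were called, 10.4% as higher in T3. Of the 8 libraries of T3, 4 lay above the highest and 6 above the median T0 library. The exact permutation test gave a difference of 0.40 with p = 0.0619, which adjusted to 0.0751. With the log2 TMM factor as a covariate the log2 fold change was 0.22 (edgeR adjusted p = 0.142).

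Among the trained periods, the only FTH1 difference called was that between the canter phase and the season end. FTH1 fell by 0.43 on the log2 scale from T1 to T3 (standard error 0.18, 95% interval -0.81 to -0.05, edgeR adjusted p = 0.0451), where 65% of genes were called, 32% as lower in T3. The change of FTH1 was larger than that of only 29.5% of genes in this comparison. Of the T3 libraries, 4 lay below the lowest T1 library, and 4 T1 libraries lay above the highest T3 library. The exact permutation test gave a difference of -0.47 with p = 0.0121, adjusted to 0.0241. This call was close to the threshold: it was lost without any one of T1 replicates 1, 2, 5, 7, 8 and 12 or T3 replicates 3, 5, 6 and 7, with an adjusted p of up to 0.0995. Without the 5 T1 libraries with low TMM factors it was -0.46 (edgeR adjusted p = 0.0319). On plain totals the log2 fold change was 0.05, in the other direction.

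For the neighbouring trained periods no FTH1 difference was called. For T1 against T2 its log2 fold change was -0.24 (standard error 0.15, 95% interval -0.56 to 0.07, edgeR adjusted p = 0.193), while 32% of genes were called, 20.8% as lower in T2. The permutation test with 100000 resamples gave -0.27 with p = 0.0626, and without the 5 libraries the edgeR value was -0.27 (adjusted p = 0.43). Without these 5 libraries edgeR called 0 genes in T1:T2, with 1444 at an unadjusted p under 0.05 (DESeq2 on all libraries called 4328). For T2 against T3 it was -0.20 (standard error 0.17, 95% interval -0.56 to 0.17, edgeR adjusted p = 0.355), while 44% of genes were called, 21.5% as lower in T3. The exact permutation test gave p = 0.271. In the order T0, T3, T2, T1, no pair of neighbours was called after adjustment, although the unadjusted interval of T0:T3 left out 0. The differences called were T0 to T2, T0 to T1 and T3 to T1. The 6 comparisons share libraries and are not independent of each other.

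**Figure D2:**
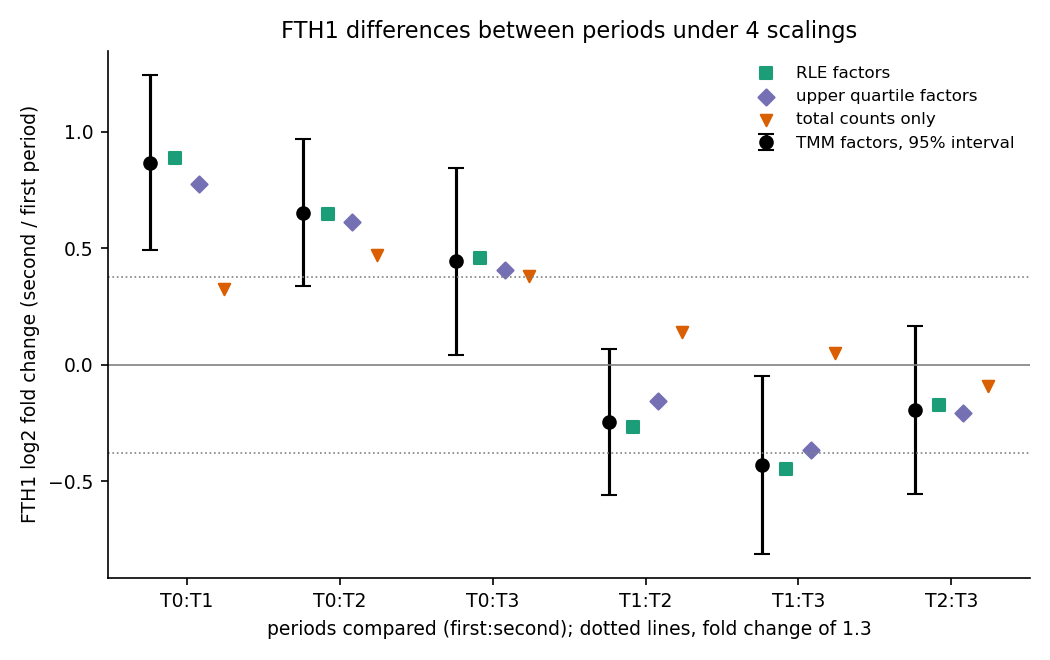
Log2 fold change of FTH1 (vertical axis, second over first period) for the 6 pairs of periods (horizontal axis), with the edgeR value and its 95% interval under TMM factors in black and the values under 3 other scalings in colour. RLE and upper quartile factors keep the direction of all 6 values, whereas plain totals lower T0:T1 from 0.87 to 0.33 and turn T1:T2 and T1:T3 positive.

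The scaling moved the FTH1 value most in T0:T1, T1:T2 and T1:T3. Under plain totals the median log2 fold change of all genes was -0.56 in T0:T1, 0.43 in T1:T2 and 0.50 in T1:T3, against -0.05, 0.06 and 0.04 under TMM. The share of called genes that were higher in the second period went from 49.8% under TMM to 24% under plain totals in T0:T1 and from 50.7% to 23.8% in T0:T2. It went from 35.1% to 65.4% in T1:T2, from 50.7% to 73% in T1:T3 and from 51.1% to 65% in T2:T3. Relative to the median gene, FTH1 was higher in T1 than in T0 by 0.92 under TMM and by 0.89 under plain totals. Its T1:T3 difference relative to that gene was -0.47 and -0.45. These values are close by construction, since a change of scaling moves all genes of a library alike. With DESeq2, whose median was taken over more genes, they were 0.66 and -0.17. In CPM of plain totals the untrained horses had a mean of 1068 ± 123 (SD, n = 6) and the canter phase 1340 ± 472 (SD, n = 12). The gallop phase had 1479 ± 277 (SD, n = 11) and the season end 1389 ± 366 (SD, n = 8), so that the gallop phase had the highest mean on this scale.

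The 5 T1 libraries with low TMM factors had FTH1 levels of 1169 to 2527 CPM (median 1451), and the other 7 had 1317 to 2026 CPM (median 1657). On plain totals the same 5 had 480 to 1244 CPM and the other 7 had 1374 to 2041 CPM, so that they overlapped on the first scale and not on the second. The 10 genes with most counts took 8.97% to 12.1% of counts in those 5 libraries and 7.66% to 9.15% in the other 7. Among 12 relations of FTH1 with the TMM factor or the total, some are not given because their libraries lay in separate clusters. These are the relations over all 37 libraries, over the whole of T1 and over T3. The only exception is the relation with the total in T1, given below with and without 2 libraries. Within T2, FTH1 was lower in libraries with higher TMM factors (Pearson r = -0.68, permutation p = 0.0192, adjusted over 12 relations to 0.0461; Spearman rho = -0.65, permutation p = 0.0362, adjusted to 0.11; n = 11). Without the 2 libraries with the most distant factors r was -0.53. Within T0, FTH1 was lower in libraries with more counts (r = -0.93, exact p = 0.0111, adjusted to 0.0461; rho = -0.89, exact p = 0.0333, adjusted to 0.11; n = 6), with r = -0.94 without 2 libraries. Within the 7 T1 libraries with high factors, r with the TMM factor was -0.60 (exact p = 0.165). The scaled level contains the total and the factor in its denominator, and the part of either in the differences was not tested.

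**Figure D3:**
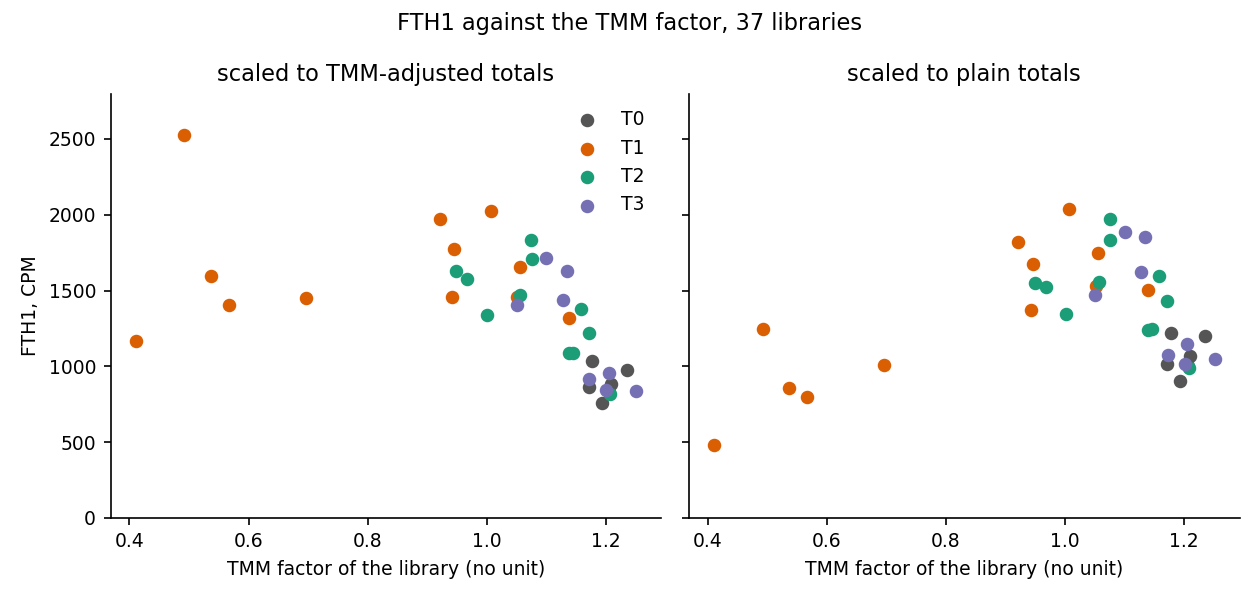
FTH1 in CPM (vertical axes) against the TMM factor of each library (horizontal axes, no unit), scaled to TMM-adjusted totals on the left and to plain totals on the right, coloured by period. The 5 T1 libraries at factors of 0.410 to 0.696 lie at 1169 to 2527 CPM on the left and at 480 to 1244 CPM on the right.

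On the TMM scale, FTH1 varied least among the untrained horses and most at the season end, whereas on plain totals the SD was highest after the canter phase. On the TMM scale its coefficient of variation was 11.2% in the untrained horses, 22.7% after the canter phase, 22.2% after the gallop phase and 30.2% at the season end. In T3, the SD of log2 CPM was 0.44 and exceeded that of 87.8% of 9329 genes averaging 50 counts or more, whose median SD was 0.23. In T1 the SD of FTH1 was 0.31 beside a median of 0.58, so that FTH1 varied more than only 12.6% of genes there. In T0 the SD was 0.16 beside a median of 0.21, and in T2 it was 0.34 beside 0.32.

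The wide spread of T3 came from libraries at separate levels. Replicates 5, 6, 7 and 3 had 835, 845, 914 and 953 CPM, and replicates 4, 8, 1 and 2 had 1401, 1440, 1632 and 1713 CPM. Each of these sets held 2 mares and 2 stallions. The former had TMM factors of 1.17 to 1.25 and totals of 12976715 to 14932603, and the latter had factors of 1.05 to 1.13 and totals of 10505578 to 12564366. The part of composition and depth in this division was not tested. The mean absolute deviation from the period median, in log2 CPM, was 0.117 for the untrained horses, 0.236 for the canter phase, 0.263 for the gallop phase and 0.400 for the season end. Spread was larger in T3 than in T0 by 0.28 (exact permutation p = 0.000666, adjusted over 6 pairs to 0.004), but the adjusted p was 0.372 to 0.41 when any one of the 8 T3 libraries was left out. For the other 5 pairs the adjusted permutation p was 0.159 to 0.757.

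No FTH1 difference between mares and stallions was called. Untrained mares had a mean of 895 CPM and untrained stallions 888 CPM. The corresponding means were 1601 and 1686 CPM after the canter phase, 1315 and 1413 CPM after the gallop phase, and 1198 and 1235 CPM at the season end. With period as a term, stallions were higher by 0.06 on the log2 scale (standard error 0.12, 95% interval -0.18 to 0.30, edgeR adjusted p = 0.767), where 0.0333% of genes were called. On plain totals the difference was 0.26 (standard error 0.13, unadjusted p = 0.0543, edgeR adjusted p = 0.308), against 0.06 under TMM. The difference between periods was not called different by sex in any of the 6 pairs under TMM (interaction of -0.06 to 0.12 on the log2 scale, edgeR adjusted p of at least 0.886). On plain totals the interaction reached 0.69 in T0:T1 (edgeR adjusted p = 0.407). T0 held only 2 mares.

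FTH1 was also set against the reference genes of the study's qPCR, SDHA, a subunit of mitochondrial complex II, and GAPDH, an enzyme of glycolysis. The ratio of FTH1 to SDHA counts was 4.47 ± 0.90 (SD, n = 6) in untrained horses and 8.78 ± 2.28 (SD, n = 12) after the canter phase. It was 7.08 ± 2.21 (SD, n = 11) after the gallop phase and 6.16 ± 2.24 (SD, n = 8) at the season end. This order was the same as that of the CPM. The ratio to GAPDH was 0.781 ± 0.169 (SD, n = 6) in untrained horses and 1.02 ± 0.265 (SD, n = 12) after the canter phase, and then 0.994 ± 0.235 (SD, n = 11) after the gallop phase and 0.988 ± 0.306 (SD, n = 8) at the season end. The trained periods thus lay closer together on the GAPDH scale. GAPDH itself was higher in T1 than in T0 (log2 fold change 0.51, edgeR adjusted p = 0.0253), although its value was -0.10 on plain totals. SDHA was not called under TMM in any pair, and on plain totals it was lower in T1 than in T0 (-0.61, edgeR adjusted p = 0.0487).

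In its comparison of T0 with T3 the study lists 8 other genes together with FTH1 by identifier. That list was chosen on these samples and is no independent evidence. In the counts none of the 8 passed the test in T0:T3, and 6 of 8 had positive values (median log2 fold change 0.11, against -0.01 for all genes). Between T0 and T1, 8 of 8 rose (median 1.39, all genes -0.05), where 28.9% of all genes were called higher. SYF2, a splicing factor, rose by 1.24 (standard error 0.22) and IL10RB, a receptor subunit for interleukin-10 family cytokines, by 0.53 (standard error 0.15), and FTH1 lay between them. MAP1LC3B, a protein of autophagosome membranes, rose by 0.66 (standard error 0.26). Between T0 and T2, 4 of 8 rose (median 0.40, all genes 0.04), where 17% of all genes were called higher. Between T1 and T3, 6 of 8 fell (median -1.45, all genes 0.04), where 32% of all genes were called lower. The value of FTH1 in that comparison was -0.43. On plain totals 5 of 8 were called higher in T1 than in T0, where 1420 of the 11544 genes tested were called higher. IL10RB (-0.07), MAP1LC3B (0.0033) and LOC100060531 (0.26) were not called on this scale.

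**Figure D4:**
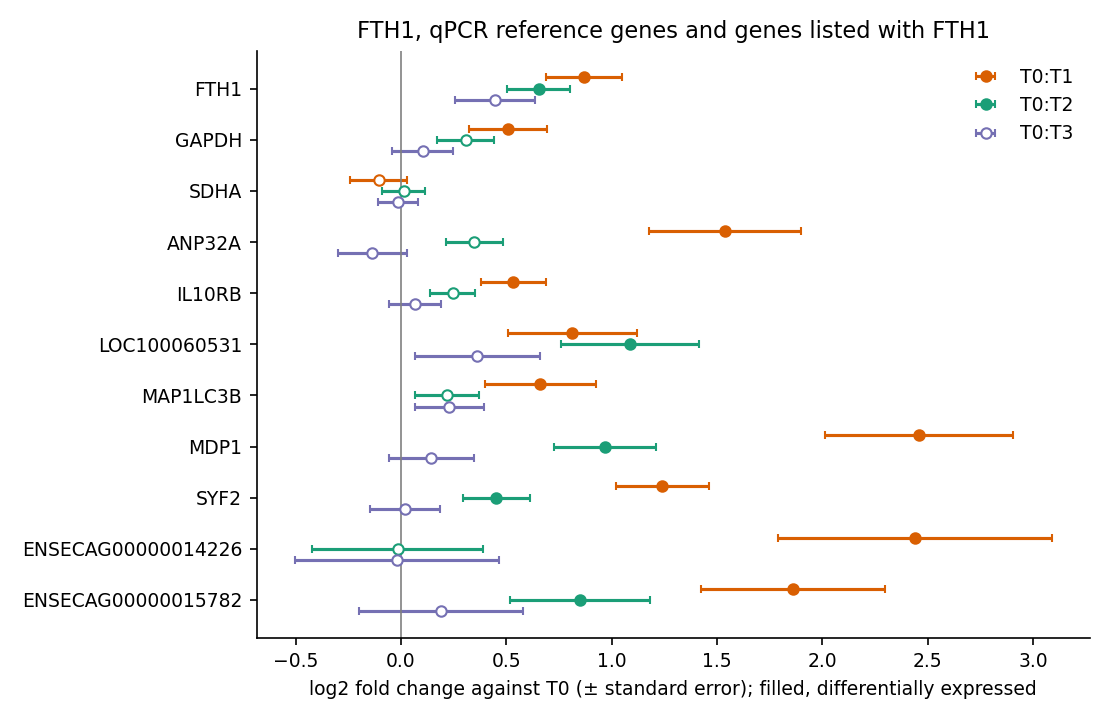
Log2 fold change against T0 (horizontal axis, ± standard error) of FTH1, the qPCR reference genes and the 8 other listed genes (vertical axis), in T1, T2 and T3, with filled points for differentially expressed genes. In T1 FTH1, GAPDH and all 8 other genes are called higher under TMM (on plain totals GAPDH and IL10RB are slightly lower), and in T3 none of the genes shown is called.

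The gene whose level followed FTH1 most closely was ENSECAG00000024982, for which the files give no symbol. Its Pearson correlation with FTH1 in log2 CPM over the 37 libraries was 0.946, and 0.903 after the period means were subtracted, among the 9328 other genes averaging 50 counts or more, which had a median correlation of 0.01. It was in first place also by rank correlation and on plain totals. Its mean was 53.2 CPM in untrained horses, 97.8 CPM after the canter phase, 77.6 CPM after the gallop phase and 71.4 CPM at the season end, the order found for FTH1. FTH1 had 17.2 ± 1.71 counts (SD, n = 37) for each count of this gene, with a range of 14.2 to 20.7. In T0 the coefficient of variation of this ratio was 2.64%, compared with 11.2% for the FTH1 level itself. ENSECAG00000024982 had only 630 to 757 counts per library in T0, so its own counting error was no smaller than this variation of the ratio. The ratio varied more after the canter phase (11.6%), after the gallop phase (11.8%) and at the season end (7.15%). RSEM divides reads that map to several similar genes among them, and whether the 2 identifiers share reads was not tested.

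**Figure D5:**
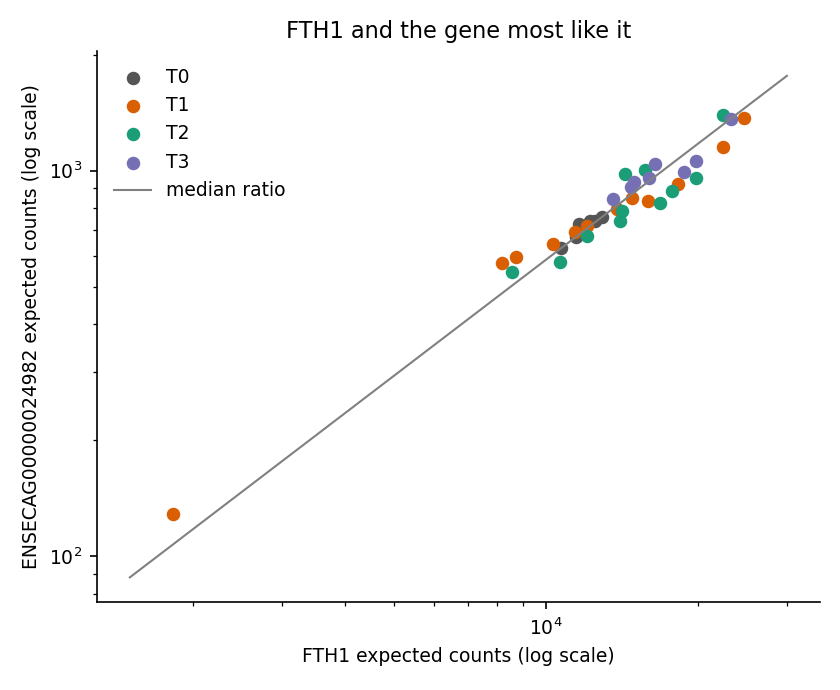
Expected counts of ENSECAG00000024982 (vertical axis, log scale) against those of FTH1 (horizontal axis, log scale) in the 37 libraries, coloured by period, with a grey line at the median ratio. The points of all 4 periods follow the line, with ratios of FTH1 to this gene of 14.2 to 20.7.

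ENSECAG00000014660 came second with a correlation of 0.872 over all libraries and 0.876 within periods, followed over all libraries by ENSECAG00000001899 (0.869), ENSECAG00000024946 (0.853) and ENSECAG00000000906 (0.852). Within periods, ENSECAG00000009928 (0.809), ENSECAG00000012199 (0.803) and ENSECAG00000018133 (0.798) took the next places. ENSECAG00000014660 had 334 ± 86.9 CPM (SD, n = 6) in untrained horses, 639 ± 166 CPM (SD, n = 12) after the canter phase, 539 ± 135 CPM (SD, n = 11) after the gallop phase and 599 ± 154 CPM (SD, n = 8) at the season end, so that its T3 mean lay above its T2 mean, unlike that of FTH1. Of the genes listed with FTH1 and the qPCR reference genes, IL10RB had the highest correlation with FTH1 (0.758), SYF2 had 0.697, GAPDH 0.529 and SDHA -0.26. These correlations are descriptions over libraries that share periods and TMM factors.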

How the data were processed

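The authors trimmed reads with Flexbar, aligned them to EquCab2 with STAR and estimated counts per gene with RSEM from an Ensembl annotation. The deposited expected counts, rounded by the authors to whole numbers and not normalized, were used for all 37 libraries. The TruSeq RNA libraries do not mark strand, so reads of a gene and of an antisense partner cannot be told apart. The 3 smaller deposited tables were not used. Labels gave each library its period and sex. FTH1 and the gene lists were chosen with earlier results of these data known.

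Each pair of periods was fitted on its own libraries in R 4.3.3 with edgeR 4.0.16 (filterByExpr, TMM, quasi-likelihood F-test, Benjamini-Hochberg adjustment over all genes tested). A standard error was obtained as |log2 fold change| over √F. Permutation tests (two-sided, scipy 1.17.1) used log2 TMM-scaled CPM. They were exact except for T1:T2, the test over all periods and correlations over 11 or more libraries, which used 100000 resamples. P-values treat the libraries as independent, although the trained horses were sampled repeatedly. Those of edgeR also rest on a spread estimated in part from other genes. The fits were also run on simulated data with independent libraries and few changed genes. Repeated sampling of horses and changes in many genes were therefore not tested by it. Genes were named by a rule: FTH1, the 5 genes most correlated with it over all libraries and within periods, the qPCR reference genes and the genes listed with FTH1 by identifier. The rule also held the 5 genes with most counts, which are not described; the share of counts of the top 10 is given. Alternatives were DESeq2 1.42.0, RLE, upper quartile and total scaling, other filters, sex, the title number, the log2 TMM factor or a surrogate variable (sva 3.50.0) as a term, thinning, fold-threshold tests, a fit of all libraries, ratios to SDHA and GAPDH, and each library left out. Sex and interaction under other scalings, and library measures in T1 without low-factor libraries, were added after seeing the data. No duplicate libraries were found (lowest chi-square per degree of freedom 14.5).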

Additional observations from a re-analysis of the deposited data

How the results depend on the processing

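FTH1 kept its call in T0:T1 and T0:T2 with each library left out (log2 fold change 0.80 to 0.92 and 0.60 to 0.71), and T0:T3 was not called in any such fit (0.36 to 0.51). T1:T2 gave -0.29 to -0.17 and T2:T3 -0.28 to -0.13 without a call. T1:T3 gave -0.52 to -0.36 and was called in 10 of 20. In the permutation tests the ranges were 0.81 to 0.91 (T0:T1), 0.56 to 0.67 (T0:T2), 0.32 to 0.47 (T0:T3), -0.31 to -0.19 (T1:T2, called without T1 replicate 11 or T2 replicate 6), -0.55 to -0.40 (T1:T3, lost without T3 replicate 3, 5, 6 or 7) and -0.28 to -0.13 (T2:T3). Differences in spread ranged from 0.07 to 0.15 (T0:T1), 0.10 to 0.17 (T0:T2), 0.22 to 0.31 (T0:T3), -0.022 to 0.078 (T1:T2, negative without T2 replicate 4), 0.10 to 0.21 (T1:T3, called without T1 replicate 1) and 0.073 to 0.19 (T2:T3, called without T2 replicate 4).

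With total scaling, FTH1 was 0.33 in T0:T1, 0.14 in T1:T2 and 0.052 in T1:T3, F over the periods was 1.76, the permutation differences were 0.23, 0.22 and 0.11, and the spread differences of T1:T2 and T1:T3 were -0.25 and -0.12. With the log2 TMM factor as a covariate, T0:T2 was 0.25, T0:T3 0.22, T1:T3 -0.40 and T2:T3 0.082, none called. Tested against the fold of 1.3 itself, T0:T2 (0.65, edgeR adjusted p = 0.0914) and T1:T3 (-0.43, 0.264) were not called. With the surrogate variable, T0:T3 (0.40) was called (edgeR adjusted p = 0.00574). T1:T3 was not called with upper quartile factors (-0.37), without a filter (-0.37) or on genes reaching 6 counts in all libraries (-0.20). As a ratio to GAPDH, the permutation differences were 0.36 (T0:T1), 0.33 (T0:T2) and -0.056 (T1:T3), none called, and the spread differences 0.11 (T0:T3, not called) and -0.013 (T1:T2). As a ratio to SDHA, the spread differences were -0.016 (T0:T1) and 0.25 (T1:T3, called). Without the 5 T1 libraries with low TMM factors, the T1:T3 permutation difference was -0.50 (adjusted p = 0.05) and the spread difference 0.21 (called). The cause of these changes was not tested.

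Interactions with sex turned to -0.65 (T1:T2) and 0.026 (T2:T3) on totals and to 0.0059 (T1:T3) with RLE factors, and grew to 0.69 (T0:T1) and -0.63 (T1:T3) on totals, none called. Without 2 libraries, r turned from 0.08 to -0.55 (TMM factor, T0), from 0.29 to -0.35 (total, T1) and from -0.15 to 0.21 (total, T1 libraries with high factors). Correlations of deviations between libraries with the same title number ranged from -0.355 to 0.560, both in T2:T3. The own number gave the best correlation for 3 of 11 shared numbers in T1:T2, 4 of 8 in T1:T3 and 1 of 8 in T2:T3. The sex was the same for only 6 of 11, 5 of 8 and 3 of 8, so the title numbers did not pair all samples by horse. With them as a replicate block, FTH1 was 0.86, 0.63, 0.40, -0.22, -0.51 and -0.23 in T0:T1, T0:T2, T0:T3, T1:T2, T1:T3 and T2:T3, and no FTH1 call changed, while the genes called in T0:T3 went from 2295 to 1447.

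The number of genes called by edgeR moved by more than 1.5 times in several fits. In T1:T2 it went from 3584 to 0 with the surrogate variable, with the TMM covariate and without the 5 T1 libraries (610, 649 and 1444 genes at an unadjusted p under 0.05; DESeq2 on all libraries called 4328), to 1754 on totals and to 1018 against the fold of 1.3. In T0:T2 it went from 3900 to 0 with the TMM covariate (1180 at an unadjusted p under 0.05; DESeq2 without it called 4204), to 2354 on genes reaching 6 counts, to 2113 in 1 fit of all libraries and to 668 against the fold. In T0:T3 it went to 717 in 1 fit and to 282 against the fold. With the covariate it went from 6708 to 2795 in T0:T1, from 7452 to 4804 in T1:T3 and from 5107 to 2965 in T2:T3, where it was 3212 on genes reaching 6 counts and 1933 against the fold.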
